A study of Homo sapiens with 12 samples.

Results

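The 600 transcriptional units described here carry the class name conRNA, for convergent RNA, in the authors' annotation of K562 cells and overlap no GENCODE annotation. They were chosen by that class and by the deposited GENCODE flag alone, out of 21874 units on both strands of the genome. K562 is a human erythroleukaemia line from a chronic myelogenous leukaemia, and all cells that gave RNA had been exposed to 500 µM 4-thiouridine (4sU) for 5 min. In TT-Seq the 4sU-labelled RNA was purified after the RNA had been fragmented in a sonicator, and in 4sU-Seq it was purified without fragmentation. Total RNA-Frag-Seq was made from fragmented RNA and Total RNA-Seq from intact RNA, both without purification. Each of these 4 groups had 2 libraries, called biological duplicates in the series' design text. RNA polymerase II was mapped by chromatin immunoprecipitation (ChIP) with the antibody N-20 and, with an antibody to polymerase phosphorylated at serine 2 of its C-terminal repeats (S2P), in 2 libraries each from K562 cells crosslinked for 7.5 min.

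Convergent transcription in the usual sense starts inside a gene, close to its promoter, and runs back against the gene's own direction. Such RNAs, like other RNAs made antisense to or upstream of genes, are usually short-lived and are removed in the nucleus by the RNA exosome with its adaptor complexes. RNA labelled for a few minutes with 4sU is rich in recently made molecules, and fragmenting it before purification discards the older part of a transcript made before labelling, so unstable RNAs take a larger share of TT-Seq than of total RNA.

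The class name and the coordinates did not fully match. A unit was called start-facing when its 5′ end lay up to 1 kb downstream of the start of an mRNA unit that it overlapped on the opposite strand. This held for 90 of the 600 units (15%), whose 5′ ends lay 3 to 986 bases downstream of the mRNA start, with a median of 394 bases. Of these, 85 ran across the mRNA start and 5 ended inside the mRNA unit. A further 156 units (26.0%), called internal, overlapped an mRNA unit but started further downstream, at a median of 3998 bases. Of these, 146 started inside the mRNA unit and 10 past its end, so that they ran into it from beyond. In 108 units (18%) the 5′ end lay up to 1 kb upstream of an mRNA start on the opposite strand, at a median of 180 bases, which is a divergent arrangement. The remaining 246 units (41.0%), called elsewhere, had none of these relations to an mRNA unit, and 116 of them overlapped no unit at all on the opposite strand. The units were therefore described by their class name and their position, and not all as convergent.

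The upstream antisense class, uaRNA, had similar shares, and the antisense class, asRNA, did not. Among 522 uaRNA units outside GENCODE 17% were start-facing, 24.5% internal, 18.6% upstream and 39.8% elsewhere. Among 2518 asRNA units outside GENCODE 23.2% were start-facing, 39.8% internal, 12.9% upstream and 24.1% elsewhere. Of the 178 conRNA units that overlap GENCODE, 3.93% were start-facing and 64.0% lay elsewhere. With coding gene starts from RefSeq in place of unit starts, for the 578 conRNA units outside GENCODE on chromosomes other than 8, 97 (16.8%) started up to 1 kb downstream and 158 (27.3%) up to 1 kb upstream of a coding start on the opposite strand. This second definition was chosen after the data had been seen. For 63 start-facing units the RefSeq start of the faced gene itself was found, and 41 of them started up to 1 kb downstream of it, 20 up to 1 kb upstream and 2 further upstream. The unit starts and the RefSeq starts therefore place some of the same conRNAs on opposite sides of a promoter. Median length was 2238 bases for the conRNA units outside GENCODE, with extremes of 146 and 83820 bases, against 13432 bases for conRNA units inside GENCODE.

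**Figure D1:**
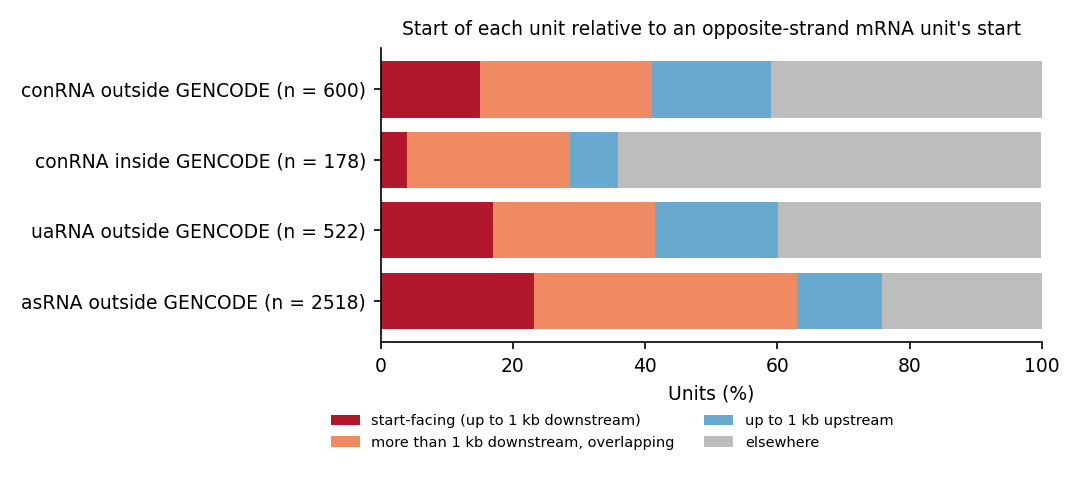
Share of units (%, x axis) by where their 5′ end lies relative to the start of an mRNA unit on the opposite strand, for conRNA outside GENCODE and 3 related classes (rows, n in brackets). Start-facing units are 15% of conRNA outside GENCODE, and 41.0% lie elsewhere.

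The windows below are those of promoters on which the results turn, from 250 bases before to 50 bases after the RefSeq gene start (GRCh38.p14, the build of the units), written 5′ to 3′ on the gene's strand. Capitals mark the GC box GGGCGG and the ETS-type motif CCGGAAG on either strand, and CACGTG; where matches overlap, the capitals run on. The first 4 are promoters of genes faced by conRNAs. ASPSCR1 (chr17:81977379-81977678, plus strand) lies at the start-facing conRNA with one of the highest levels relative to its mRNA, and that conRNA starts at -199 bases relative to the RefSeq gene start, where a negative position is upstream. WDR1 (chr4:10116750-10117049, minus strand) and NEDD1 (chr12:96907007-96907306, plus strand) lie wholly inside the span of their conRNAs, which start 894 and 1048 bases downstream of the RefSeq gene start. PEX11G (chr19:7489351-7489650, minus strand) has none of the motifs, and its conRNA starts 677 bases downstream. The fifth window belongs to LOC105376034, a RefSeq long non-coding RNA whose start (chr9:37120351-37120650, minus strand) coincides to the base with that of the conRNA facing ZCCHC7.
ASPSCR1: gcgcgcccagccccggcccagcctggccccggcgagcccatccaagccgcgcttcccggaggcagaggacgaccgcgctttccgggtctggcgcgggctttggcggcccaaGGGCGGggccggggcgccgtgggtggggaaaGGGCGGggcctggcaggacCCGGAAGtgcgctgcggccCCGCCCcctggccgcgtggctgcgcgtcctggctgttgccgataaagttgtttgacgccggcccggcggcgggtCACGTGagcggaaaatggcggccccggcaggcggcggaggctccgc
WDR1: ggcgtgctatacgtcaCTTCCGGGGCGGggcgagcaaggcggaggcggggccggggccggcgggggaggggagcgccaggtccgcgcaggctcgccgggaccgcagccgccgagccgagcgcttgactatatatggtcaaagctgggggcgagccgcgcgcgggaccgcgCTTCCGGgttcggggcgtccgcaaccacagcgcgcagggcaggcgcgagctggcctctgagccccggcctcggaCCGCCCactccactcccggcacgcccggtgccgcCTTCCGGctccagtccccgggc
NEDD1: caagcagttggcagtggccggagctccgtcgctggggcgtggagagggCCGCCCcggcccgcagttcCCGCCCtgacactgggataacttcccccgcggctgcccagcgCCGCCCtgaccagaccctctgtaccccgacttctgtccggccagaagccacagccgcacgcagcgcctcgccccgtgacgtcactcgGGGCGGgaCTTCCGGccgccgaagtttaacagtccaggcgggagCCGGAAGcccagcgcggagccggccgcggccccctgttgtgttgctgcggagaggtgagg
PEX11G: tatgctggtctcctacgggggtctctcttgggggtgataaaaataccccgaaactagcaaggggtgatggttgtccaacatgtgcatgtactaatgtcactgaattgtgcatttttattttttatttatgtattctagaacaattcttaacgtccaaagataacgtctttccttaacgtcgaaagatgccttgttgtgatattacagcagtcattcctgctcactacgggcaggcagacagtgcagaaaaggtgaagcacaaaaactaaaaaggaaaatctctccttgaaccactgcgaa
LOC105376034: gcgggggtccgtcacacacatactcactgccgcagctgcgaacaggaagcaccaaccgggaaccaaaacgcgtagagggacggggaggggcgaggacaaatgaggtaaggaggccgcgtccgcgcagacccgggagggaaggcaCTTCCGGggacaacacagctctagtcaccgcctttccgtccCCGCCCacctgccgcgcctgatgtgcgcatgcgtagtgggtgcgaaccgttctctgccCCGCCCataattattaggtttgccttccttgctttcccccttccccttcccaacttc

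The faced promoters were set beside those of all named mRNA units. Median GC content was 65.7% over the 63 windows found for start-facing conRNAs, 67.3% over the 119 for internal conRNAs and 66.0% over the 6192 windows of all named mRNA units. GGGCGG stood in 73.0% of the windows faced by start-facing units, in 71.4% of those faced by internal units and in 73.1% of all mRNA-unit windows. CCGGAAG stood in 27.0%, 14.3% and 21.2% of the same 3 sets, and TATAAA in 3.17%, 6.72% and 4.67%. CACGTG stood in 7.94%, 10.9% and 10.4%. These are shares of windows with at least 1 match on either strand and were not tested.

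The conRNAs were weakly covered. Their median count was 45 and 49.5 in TT-Seq, 28 and 28 in 4sU-Seq, 5 and 5 in the Total RNA-Frag-Seq libraries, and 6 and 5 in Total RNA-Seq. No unit was at 0 in both TT-Seq libraries or in both 4sU-Seq libraries, whereas 47 were at 0 in both Total RNA-Frag-Seq libraries and 42 in both Total RNA-Seq libraries. At least 10 counts in each of the 8 libraries were reached by 166 units. The libraries held 68913035 and 71317148 binned counts in TT-Seq, 54295993 and 47092776 in 4sU-Seq, 43136737 and 33336294 in the Total RNA-Frag-Seq libraries and 30382514 and 25909021 in Total RNA-Seq. Of 10 K562 marker genes, 5 were matched and 4 of them reached 1 CPM per kb in TT-Seq (CPM is counts per 1000000 counts of a library, here over units), among them GATA1 at 9.89 and TFRC at 11.2 CPM per kb. The matched K562 marker below that level was EPOR, at 0.455 CPM per kb. Of 8 genes listed for other cell types, 3 were matched, CD79A at 0.0105, ALB at 0.0129 and PTPRC at 1.56 CPM per kb. PTPRC lay above EPOR, so the lists were not fully separated by level.

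Per length, the conRNAs lay well below the mRNAs they face and their level followed the labelling. The median conRNA level was 0.285 ± 0.0111 CPM per kb in TT-Seq, 0.267 ± 0.0205 in 4sU-Seq, 0.0851 ± 0.00349 in Total RNA-Frag-Seq and 0.104 ± 0.00963 in Total RNA-Seq (SD, n = 2 each). Facing mRNA units, taken over exons and introns, had medians of 1.36 ± 0.0183, 1.49 ± 0.00244, 1.84 ± 0.0116 and 1.58 ± 0.00422 CPM per kb in the same order of groups. All these levels are relative to the counts of a library, so fewer cells with an RNA and less RNA per cell cannot be told apart. The conRNAs together took 0.15 ± 0.000836% of unit counts in TT-Seq and 0.155 ± 0.00295% in 4sU-Seq, against 0.102 ± 0.00246% in Total RNA-Frag-Seq and 0.0972 ± 0.00233% in Total RNA-Seq. One unit, chr17:27086532-27160997 on the plus strand, supplied 10.6% and 10.1% of the conRNA counts in TT-Seq and 23.4% and 22.8% in Total RNA-Frag-Seq. Without it the shares were 0.134% in TT-Seq, 0.135% in 4sU-Seq, 0.0784% in Total RNA-Frag-Seq and 0.0775% in Total RNA-Seq.

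Within the span of a conRNA that overlaps an mRNA unit, the conRNA strand held a larger share of the labelled RNA than of total RNA. Over 246 such pairs the median share of counts on the conRNA strand was 47.0 ± 2.89% in TT-Seq, 35 ± 1.02% in 4sU-Seq, 14.7 ± 1.89% in Total RNA-Frag-Seq and 14.2 ± 0.158% in Total RNA-Seq (SD, n = 2 each). As a reference for strand separation, the same share was taken over 2604 whole mRNA units with no unit on the opposite strand. Units were drawn from TT-Seq, so a low share in these 2604 units was partly fixed by that choice. There the median was between 0.504% and 0.992% in the 8 libraries and the 95th percentile between 5.62% and 7.09%. The 95th percentile was passed by 233 and 229 pairs in TT-Seq, 217 and 214 in 4sU-Seq, 165 and 157 in the Total RNA-Frag-Seq libraries, and 157 and 153 in Total RNA-Seq. Start-facing conRNAs that cross the mRNA start ran a median of 1871 bases past it, outside the mRNA unit. The regions compared are therefore unlike, and passing the percentile does not measure strand leakage. Measured over the whole units, the median ratio of conRNA to mRNA level per kb was 0.241 ± 0.0022 in TT-Seq, 0.206 ± 0.0301 in 4sU-Seq, 0.0483 ± 0.00322 in Total RNA-Frag-Seq and 0.0639 ± 0.00748 in Total RNA-Seq. It was above 1 in 23 and 27 pairs in TT-Seq, against 1 and 2 pairs in Total RNA-Frag-Seq.

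**Figure D2:**
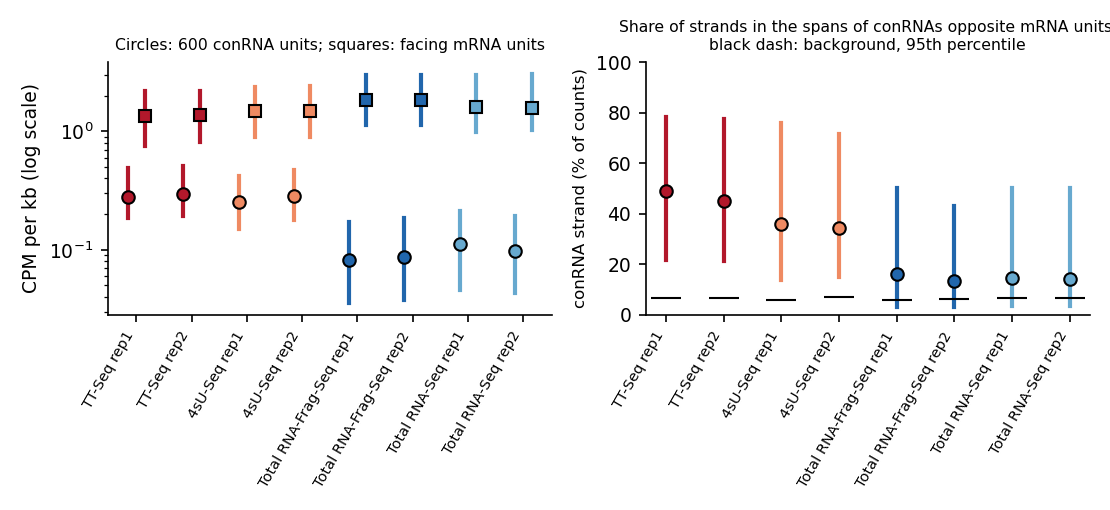
Left, median level (CPM per kb, log scale) of the 600 conRNA units (circles) and of their facing mRNA units (squares) in each library; right, median share of counts on the conRNA strand (%) over the spans of 246 conRNAs, with black dashes for the 95th percentile in mRNA units that have no unit opposite. Bars run from the lower to the upper quartile of units; the conRNA share is highest in TT-Seq, at 49% and 45%, and is 14.3% and 14.1% in Total RNA-Seq.

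The comparison of TT-Seq with Total RNA-Frag-Seq asks which RNAs are enriched among newly made molecules when both libraries are fragmented. The conRNA units were drawn from TT-Seq by the authors, so their counts in comparisons with TT-Seq are not independent of how the units were drawn. Of 599 units that passed the filter of 10 counts over the 8 libraries, 448 were higher in TT-Seq and 25 lower (edgeR quasi-likelihood test, adjusted p under 0.05 over all units), at a median log2 fold change of 1.98. Over all 21828 units tested, 44.6% were higher and 34.3% lower, with a median of 0.26. Upstream units had a median of 2.43 with 88 of 108 higher and 0 lower. Start-facing units had a median of 2.12, with 72 of 90 higher and 1 lower, and internal units 1.8, with 124 of 156 higher and 2 lower. Units elsewhere had a median of 1.78, with 164 of 245 higher and 22 lower. The 200 units with the lowest mean level had a median of 2.58, the 200 in the middle 2.07 and the 200 with the highest level 1.07.

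Other antisense classes outside GENCODE had similar counts. The uaRNA units outside GENCODE had 404 of 520 higher and 17 lower with a median of 1.95, and the asRNA units 1992 of 2514 higher and 70 lower with a median of 1.88. The conRNA units inside GENCODE had 65 of 178 higher and 79 lower, with a median of -0.14. The difference between classes was not tested.

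NEDD1, which encodes a protein that anchors the gamma-tubulin ring complex at centrosomes, faced the conRNA with the largest fitted change among called units with a mean of at least 0.5 CPM and a named facing gene; among all called units the highest fitted change was 8.56. This internal conRNA (chr12:96904195-96908305, minus strand) had 1.39 and 1.31 CPM in TT-Seq and 1.18 and 0.913 CPM in 4sU-Seq, against 0.0611 and 0.0397 CPM in the Total RNA-Frag-Seq libraries and 0.628 and 0.423 CPM in Total RNA-Seq. The log2 fold change of TT-Seq over Total RNA-Frag-Seq was 4.63 (SE 0.47, edgeR adjusted p = 2.28e-08), a 24.7-fold difference that rests on 2 and 1 counts in Total RNA-Frag-Seq. The TT-Seq libraries did not overlap those of either total RNA group. Its mRNA unit fell by 0.17 on the log2 scale in TT-Seq (adjusted p = 0.0133).

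IREB2 encodes iron regulatory protein 2, which binds iron-responsive elements in mRNAs. Its start-facing conRNA (chr15:78436668-78437988, minus strand) starts 375 bases downstream of the start of the mRNA unit, which is position -228 relative to the RefSeq gene start. It had 2.7 and 3.03 CPM in TT-Seq, 1.99 and 1.94 CPM in 4sU-Seq, 0.122 and 0.119 CPM in the Total RNA-Frag-Seq libraries and 0.55 and 0.376 CPM in Total RNA-Seq. Both purified groups lay above both total groups, with a log2 fold change of 4.53 (SE 0.33, edgeR adjusted p = 1.15e-10) in TT-Seq over Total RNA-Frag-Seq. Of the counts inside its span, 98.4% and 99.5% came from the conRNA strand in TT-Seq, against 80.0% and 100% in the Total RNA-Frag-Seq libraries, on 4 and 3 conRNA counts, and 100% and 100% in Total RNA-Seq.

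The start-facing conRNA of MRPS28, a protein of the small subunit of the mitochondrial ribosome, had 1.66 and 1.79 CPM in TT-Seq, against 0.153 and 0 CPM in the Total RNA-Frag-Seq libraries, with a log2 fold change of 4.28 (SE 0.46, edgeR adjusted p = 6.02e-08). CHD2, a chromatin remodeller, faced a start-facing conRNA, at -17091 bases relative to the RefSeq gene start, with 1.8 and 1.51 CPM in TT-Seq, against 0.153 and 0.119 CPM in the Total RNA-Frag-Seq libraries (log2 fold change 3.55, SE 0.38, edgeR adjusted p = 4.02e-08). In both cases the groups were far apart. Internal conRNAs behaved in the same manner for VPS26A, a subunit of the retromer that returns cargo from endosomes, with 2.08 and 1.56 CPM in TT-Seq against 0.153 and 0.0397 CPM in the Total RNA-Frag-Seq libraries (log2 fold change 4.10, SE 0.43, edgeR adjusted p = 3.45e-08). CLCN3, a chloride/proton exchanger of endosomes, faced a conRNA with 1.73 and 1.72 CPM in TT-Seq against 0.122 and 0.119 CPM in the Total RNA-Frag-Seq libraries. NOSTRIN, which regulates the trafficking of endothelial nitric oxide synthase, faced one with 2.91 and 2.83 CPM against 0.214 and 0.238 CPM in the same 2 groups. The log2 fold changes were 3.80 for CLCN3 and 3.66 for NOSTRIN. Polymerase ChIP over the span of the CLCN3 conRNA held 0 and 2 counts with N20 and 0 and 0 with S2P. The reason was not tested.

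Not every internal conRNA lies near a promoter. The unit opposite CCDC88C, which encodes a Dishevelled-binding protein of Wnt signalling, starts 164042 bases downstream of the mRNA start (chr14:91253668-91255826, plus strand). It had 0.93 and 0.83 CPM in TT-Seq and 0.914 and 1.35 CPM in 4sU-Seq, against 0 and 0.0794 CPM in the Total RNA-Frag-Seq libraries and 0.0393 and 0.0939 CPM in Total RNA-Seq. The log2 fold change of TT-Seq over Total RNA-Frag-Seq was 4.55 (SE 0.63, edgeR adjusted p = 1.83e-06), and that of 4sU-Seq over Total RNA-Seq 4.07 (SE 0.59, edgeR adjusted p = 6.41e-06).

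WDR1, a partner of cofilin in actin filament disassembly, faced a more abundant conRNA than these. This unit (chr4:10115905-10122309, plus strand) had 11.8 and 12.6 CPM in TT-Seq, 6.4 and 7.28 CPM in 4sU-Seq, 1.1 and 1.19 CPM in the Total RNA-Frag-Seq libraries and 2.16 and 2.3 CPM in Total RNA-Seq. The 4 groups did not overlap. Its log2 fold change was 3.42 (SE 0.16, edgeR adjusted p = 1.69e-13) in TT-Seq over Total RNA-Frag-Seq and 0.84 (SE 0.11, edgeR adjusted p = 1.94e-06) in TT-Seq over 4sU-Seq. In its span 85.9% and 85.5% of TT-Seq counts were on the conRNA strand, against 39.6% and 36.6% of Total RNA-Frag-Seq counts. The WDR1 mRNA unit had 116 and 112 CPM in TT-Seq, against 182 and 173 CPM in the Total RNA-Frag-Seq libraries (log2 fold change -0.64, edgeR adjusted p = 8.53e-09).

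**Figure D3:**
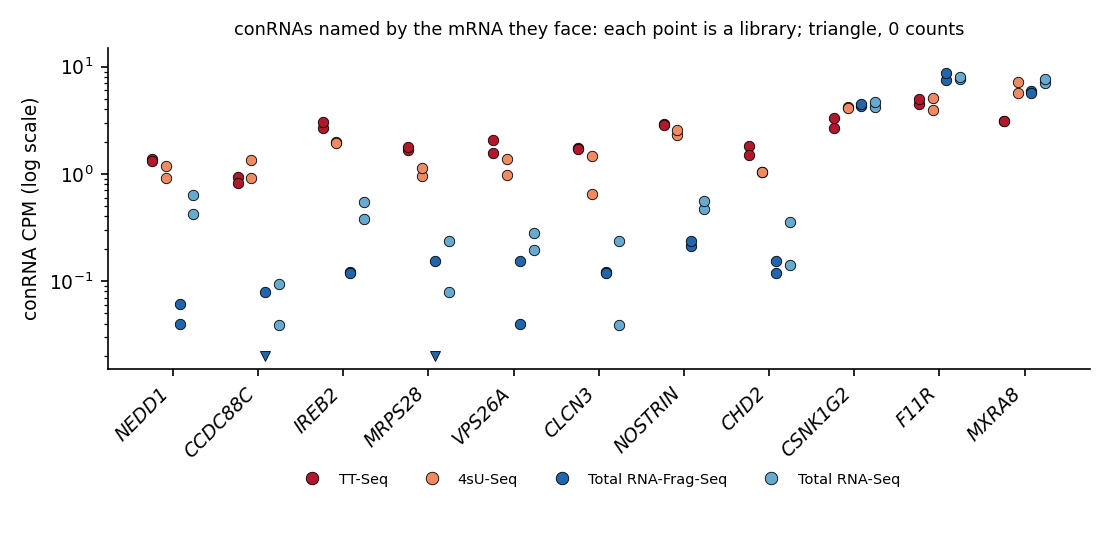
Level (CPM, log scale) of the conRNAs facing the 8 genes with the highest and the 3 with the lowest called log2 fold changes in TT-Seq relative to Total RNA-Frag-Seq among conRNAs with a mean of at least 0.5 CPM and a named facing gene; each point is a library, and triangles stand for 0 counts. The TT-Seq points lie above the Total RNA-Frag-Seq points for the first 8 and below them for CSNK1G2, F11R and MXRA8.

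The 25 conRNAs that were lower in TT-Seq were mostly long, abundant and away from mRNA starts. Their median length was 15048 bases, against 2157 bases for the 448 that were higher, and 22 of the 25 lay elsewhere. A mean of at least 1 CPM was reached by 22 of the 25, against 104 of the 448. By level, 23 were among the 200 units with the highest mean level, 2 among the 200 in the middle and 0 among the 200 lowest. A fall is hard to call on few counts, and whether length and position differ at equal level was not tested. The most abundant unit of all, on chromosome 17, had 141 and 135 CPM in TT-Seq, against 270 and 271 CPM in the Total RNA-Frag-Seq libraries (log2 fold change -0.97, SE 0.06, edgeR adjusted p = 3.83e-12). The next, chr16:8058916-8113262 on the minus strand, had 131 and 134 CPM in TT-Seq against 195 and 216 CPM in the Total RNA-Frag-Seq libraries. A unit of 83820 bases on chromosome 1 (chr1:3976152-4059971, plus strand) had 40.4 and 45.3 CPM in TT-Seq against 79.0 and 83.3 CPM in the Total RNA-Frag-Seq libraries. In these 3 units the TT-Seq libraries lay below the Total RNA-Frag-Seq libraries. The intact libraries differed from this. The unit on chromosome 1 had 95.4 and 88.4 CPM in 4sU-Seq, against 58.4 and 55.8 CPM in Total RNA-Seq (log2 fold change 0.69, edgeR adjusted p = 1.03e-07). The unit on chromosome 16 was higher in 4sU-Seq by 0.26 (edgeR adjusted p = 0.00651), and the one on chromosome 17 had a log2 fold change of -0.13 that was not called (adjusted p = 0.0534).

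Only 3 units opposite an mRNA were among the lower ones. MXRA8, an adhesion protein that also serves as a receptor for alphaviruses, lay opposite a conRNA that starts past the end of the mRNA unit, with 3.11 and 3.08 CPM in TT-Seq, against 5.87 and 5.67 CPM in the Total RNA-Frag-Seq libraries (log2 fold change -0.90, SE 0.14, edgeR adjusted p = 1.16e-05). F11R, the junctional adhesion molecule A, lay opposite one with 4.49 and 5.02 CPM in TT-Seq, against 7.58 and 8.81 CPM in the Total RNA-Frag-Seq libraries (log2 fold change -0.78, SE 0.14, edgeR adjusted p = 3.66e-05). The third lay opposite CSNK1G2, a casein kinase, with a log2 fold change of -0.54 (SE 0.15, edgeR adjusted p = 0.00299) that lost its call without TMM scaling, at -0.17 (adjusted p = 0.289), and without the first TT-Seq library, at -0.40 (adjusted p = 0.0588).

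The facing mRNA units were mostly lower in TT-Seq, as mRNA units were in general. Of 246 pairs, the mRNA unit was higher in TT-Seq in 48 and lower in 160, at a median log2 fold change of -0.4 (edgeR, adjusted p under 0.05 over all units). Over all 7810 mRNA units 16.7% were higher and 62.8% lower, with a median of -0.37, so the facing units were near the share of their class. In 119 pairs the conRNA was higher and the mRNA lower, in 43 both were higher, in 34 the conRNA was higher with the mRNA uncalled, and in 3 both were lower. The fitted change of the conRNA was above that of its mRNA in 241 of the 246 pairs. The ratio within a pair needs no scaling between libraries and was tested in a fit over 297 pairs, including 51 inside GENCODE. The ratio of conRNA to mRNA rose in TT-Seq in 227 of the 246 pairs and fell in 3, with a median log2 change of 2.26. Among all 297 pairs, which include these 246, 85.2% were higher and 5.05% lower. Start-facing pairs had 82 of 90 ratios higher and internal pairs 145 of 156. With the mRNA count replaced by the opposite-strand counts over the conRNA's own span, 164 of 236 ratios were higher and 6 lower, with a median of 2.15. That span can run past the mRNA start, so these counts need not all come from the mRNA unit.

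**Figure D4:**
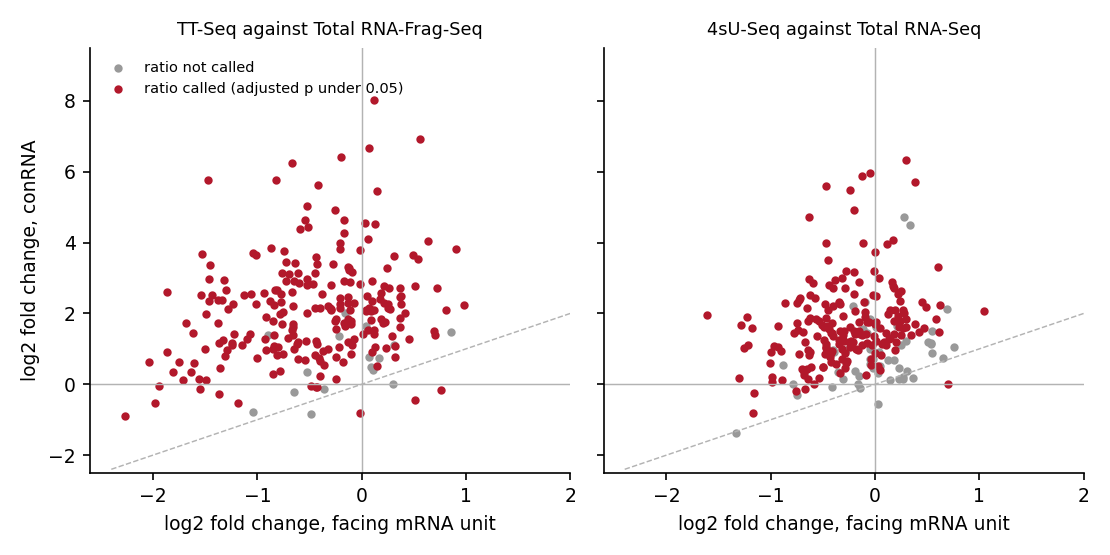
Log2 fold change of each conRNA (y axis) against that of its facing mRNA unit (x axis) for 246 pairs, in TT-Seq relative to Total RNA-Frag-Seq (left) and 4sU-Seq against Total RNA-Seq (right); red points have a called change of the ratio, and the dashed line marks equal change. Points above 5 rest on counts of 0 or near 0 in total RNA and have no exact size; 241 of 246 pairs on the left and 238 on the right lie above the line.

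The largest ratio changes among named pairs were those of NEDD1 at 4.79 (SE 0.46), CCDC88C at 4.51 (SE 0.60) and GUK1 at 4.48 (SE 0.32, edgeR adjusted p = 1.45e-20). GUK1 encodes guanylate kinase, and its start-facing conRNA, at -216 bases relative to the RefSeq gene start, had 1.64 and 1.37 CPM in TT-Seq, against 0.122 and 0.397 CPM in the Total RNA-Frag-Seq libraries. Its mRNA unit, which spans 2 coding genes, had 19 and 19.7 CPM in TT-Seq, against 72.7 and 67.9 CPM in the Total RNA-Frag-Seq libraries. The groups did not overlap for either unit. Against the opposite-strand counts of the conRNA's own span, the GUK1 ratio changed by 0.43 and was not called (edgeR adjusted p = 0.918).

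Some conRNAs exceeded their mRNA per length in TT-Seq. FSTL3, a secreted inhibitor of activin, had the highest ratio, 4.27 in TT-Seq, 2.57 in 4sU-Seq, 1.15 in Total RNA-Frag-Seq and 1.27 in Total RNA-Seq. Its conRNA itself had 3.38 and 3.01 CPM in TT-Seq, against 3.39 and 3.25 CPM in the Total RNA-Frag-Seq libraries, so the levels lay close together and the ratio moved with the mRNA unit, at 1.03 and 1.08 CPM in TT-Seq against 3.67 and 4.52 CPM in the Total RNA-Frag-Seq libraries. ASPSCR1, the tether that holds the glucose transporter GLUT4 inside fat and muscle cells, had a ratio of 4.13 in TT-Seq and 0.268 in Total RNA-Frag-Seq. Here both partners moved, since the conRNA had 2.56 and 2.94 CPM in TT-Seq against 0.367 and 0.516 CPM in the Total RNA-Frag-Seq libraries, and the mRNA unit 11.2 and 12.8 CPM in TT-Seq against 29.3 and 30.2 CPM. Against the opposite-strand counts of the conRNA's own span, the ASPSCR1 ratio changed by 2.21 and was not called (edgeR adjusted p = 0.198). PEX11G, a protein of peroxisome division, had a ratio of 3.68 in TT-Seq and 0.207 in Total RNA-Frag-Seq, with a conRNA at 0.988 and 1.03 CPM in TT-Seq and, in the Total RNA-Frag-Seq libraries, 0.0917 and 0.0397 CPM. The PEX11G mRNA unit was low, at 2.66 and 3.15 CPM in TT-Seq and 3.24 and 3.49 CPM in the Total RNA-Frag-Seq libraries.

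The ratio fell in TT-Seq for 3 pairs, 2 of which have a gene symbol. TEC encodes a cytoplasmic tyrosine kinase of blood cells. Its start-facing conRNA of 28474 bases had 12.8 and 12.2 CPM in TT-Seq, against 13 and 15 CPM in the Total RNA-Frag-Seq libraries. The mRNA unit opposite, which spans 2 coding genes, had 542 and 538 CPM in TT-Seq, against 311 and 325 CPM in the Total RNA-Frag-Seq libraries. The ratio changed by -0.92 (SE 0.13, edgeR adjusted p = 3.43e-09). KCTD3 had a ratio change of -0.81 (SE 0.34, edgeR adjusted p = 0.0227) on 40 and 17 conRNA counts in TT-Seq against 27 and 15 in Total RNA-Frag-Seq. Against the opposite-strand counts of the conRNA's own span the change was 0.00. The KCTD3 call was lost without the second TT-Seq library (-0.34, adjusted p = 0.379) and without the first Total RNA-Frag-Seq library (-0.55, adjusted p = 0.321).

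The comparison of 4sU-Seq with Total RNA-Seq, neither of which was fragmented, compares libraries other than those from which the units were drawn, although the fit and the filter of 10 counts took in all 8 libraries. Here 333 of 599 conRNAs were higher in 4sU-Seq and 9 lower, at a median log2 fold change of 1.39 (edgeR, adjusted p under 0.05). Of all units, 37.2% were higher and 25.2% lower, with a median of 0.28. By position the units counted 61 of 90 start-facing, 101 of 156 internal, 58 of 108 upstream and 113 of 245 elsewhere as higher. The lower calls were 0, 1, 0 and 8 in the same order. With only the 4 libraries compared in the fit and the filter, 554 conRNAs were tested, 303 higher and 14 lower. DESeq2 called 201 higher, and without the first Total RNA-Seq library 202 were called higher. Facing mRNA units had 53 higher and 129 lower over the 246 pairs, while 1535 of all 7810 mRNA units were higher and 3907 lower. The ratio of conRNA to mRNA rose in 194 pairs and fell in 1, with a median of 1.54, against 74.4% and 3.03% of all 297 pairs.

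Among conRNAs with a mean of at least 0.5 CPM and a named facing gene, the largest called changes in 4sU-Seq over Total RNA-Seq were opposite CCDC88C, CLCN3 and SPMIP3. The CLCN3 conRNA had 0.65 and 1.48 CPM in 4sU-Seq, against 0.0393 and 0.235 CPM in Total RNA-Seq (log2 fold change 3.00, SE 0.61, edgeR adjusted p = 0.000481). SPMIP3, a sperm microtubule inner protein, faced a conRNA with 2.48 and 2.92 CPM in 4sU-Seq, against 0.432 and 0.282 CPM in Total RNA-Seq (log2 fold change 2.88, SE 0.29, edgeR adjusted p = 5.57e-08). The groups did not overlap for either. The F11R conRNA was the only named one that was lower, with 3.94 and 5.11 CPM in 4sU-Seq against 7.74 and 7.93 CPM in Total RNA-Seq (log2 fold change -0.80, SE 0.15, edgeR adjusted p = 0.000115).

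Fragmentation before purification was addressed by TT-Seq against 4sU-Seq, which shares its TT-Seq libraries with the first comparison. Of 599 conRNAs, 61 were higher in TT-Seq and 35 lower, at a median log2 fold change of 0.22. Among all units 16.8% were higher and 25.8% lower, with a median of 0.05. The split among called conRNAs was 63.5% higher, and it was 71.9% with DESeq2 size factors, 74.1% without TMM scaling and 47.4% with DESeq2's test, which called 18 higher and 20 lower. Leaving out the first TT-Seq library left 22 higher and 22 lower, leaving out the second left 26 higher, and leaving out the first 4sU-Seq library left 31 higher. The conRNA to mRNA ratio rose in 61 of 246 pairs and fell in 15, with a median of 0.29, against 23.2% and 11.8% of all 297 pairs. There were 28 higher and 5 lower ratios without the first TT-Seq library, 36 and 4 without the second, 33 higher without the first 4sU-Seq library and 7 lower without the second.

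Among conRNAs with a mean of at least 0.5 CPM and a named facing gene, those of PAIP1, MTMR2 and WDR1 had the highest called log2 fold changes of TT-Seq over 4sU-Seq. Those of MRPS28 (0.72), CHD2 (0.66), VPS26A (0.61), IREB2 (0.54) and NCAM2 (0.45) were also higher in TT-Seq, with edgeR adjusted p between 0.000152 and 0.0322. The conRNA of MTMR2, a phosphoinositide phosphatase, had 4.55 and 4.39 CPM in TT-Seq, against 2.48 and 2.44 CPM in 4sU-Seq (log2 fold change 0.86, SE 0.14, edgeR adjusted p = 3.79e-05). PAIP1, which interacts with the poly(A)-binding protein, faced one with 0.857 and 1.13 CPM in TT-Seq, against 0.528 and 0.548 CPM in 4sU-Seq (log2 fold change 0.88, SE 0.26, edgeR adjusted p = 0.00863). The PAIP1 call was lost without the second TT-Seq library (0.66, adjusted p = 0.159). In the opposite direction, the conRNA inside GMPR, a guanosine monophosphate reductase, had 39.4 and 42.7 CPM in TT-Seq, against 93.5 and 65.8 CPM in 4sU-Seq (log2 fold change -0.96, SE 0.13, edgeR adjusted p = 0.000206). The MXRA8 conRNA had 3.11 and 3.08 CPM in TT-Seq, against 5.65 and 7.19 CPM in 4sU-Seq. PRRC2A, a proline-rich RNA-binding protein, faced one with 3.79 and 3.25 CPM in TT-Seq, against 5.75 and 6.94 CPM in 4sU-Seq. Both were lower in TT-Seq, by log2 fold changes of -1.05 and -0.85.

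Between the unpurified groups, which are the controls of the first 2 comparisons, few conRNAs differed. In Total RNA-Frag-Seq 14 were higher and 13 lower, at a median log2 fold change of -0.24, while among all units 14.6% were higher and 4.77% lower, with a median of -0.02. The median conRNA had 5 or 6 counts in these libraries, so few could be called. Of the 156 with a mean of at least 1 CPM, 14 (8.97%) were higher and 9 (5.77%) lower. With only the 4 libraries compared in the fit and the filter, 410 conRNAs were tested, 14 higher and 17 lower. Of the called conRNAs 51.9% were higher, against 28.6% with DESeq2 size factors and 21.4% without TMM scaling. Leaving out the first or the second Total RNA-Seq library left 7 higher in either case, and leaving out the second Total RNA-Frag-Seq library left 9. The NEDD1 conRNA was lower in Total RNA-Frag-Seq, at 0.0611 and 0.0397 CPM against 0.628 and 0.423 CPM in Total RNA-Seq (log2 fold change -3.29, SE 0.65, edgeR adjusted p = 0.00081), as were those of IREB2 (-1.93, adjusted p = 0.0125) and of CMBL, a hydrolase (-1.84, adjusted p = 0.0245). All 3 rest on 1 to 16 counts a library. Higher in Total RNA-Frag-Seq were the conRNA of PRPS1, which makes phosphoribosyl pyrophosphate and whose conRNA starts past the end of the mRNA unit, at 23.3 and 21.6 CPM against 16.1 and 15.7 CPM in Total RNA-Seq (log2 fold change 0.50, edgeR adjusted p = 0.000837), and that of CHD4, the ATPase of the NuRD complex, at 1.93 and 1.94 CPM against 0.942 and 1.27 CPM. The CHD4 call (log2 fold change 0.82, adjusted p = 0.0222) was lost without TMM scaling (0.67, adjusted p = 0.0584), in DESeq2's test (0.73, adjusted p = 0.117) and in each of the 4 fits that left out a library of these groups, with log2 fold changes of 0.50 to 0.91. Leaving out either Total RNA-Seq library also ended the PRPS1 call (adjusted p = 0.0558 and 0.0837). The IREB2 call was lost without the first library of either group, and the CMBL call without the second of either. The ratio to the mRNA rose in 3 pairs and fell in 10, against 2.36% and 5.05% of all 297 pairs, which include these pairs. Without any 1 library of TT-Seq, Total RNA-Frag-Seq or Total RNA-Seq, 0 or 1 ratio rose and 3 to 5 fell.

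The authors' deposited table also gives a decay rate and a synthesis rate for each unit, in units not given in the sources used here. In the authors' deposited table the median decay rate was 0.166 for 597 conRNAs outside GENCODE, with quartiles of 0.0627 and 0.573, against 0.0156 for 219 facing mRNA units and 0.0448 for all units. The authors' deposited table gave 0.218 for start-facing, 0.289 for upstream, 0.155 for internal and 0.128 for elsewhere units as medians. For uaRNA and asRNA outside GENCODE the medians in the authors' deposited table were 0.174 and 0.162, and for conRNA inside GENCODE 0.0181. By pair, the decay rate in the authors' deposited table was higher for the conRNA in 192 of 221 pairs, with a median ratio of 14.9, and the synthesis rate was higher in 100 of 221. These rates were made by the authors from libraries of this series and are no separate evidence on stability.

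Around the 5′ ends, labelled RNA from the conRNA strand rose near the annotated start and faded over a few kilobases. The starts were drawn by the authors from these TT-Seq libraries, so a TT-Seq rise there was fixed in advance. In start-facing units the median TT-Seq level in 200-bp bins was highest at 0.0611 CPM, 800 bases into the unit, and the median Total RNA-Frag-Seq level there was 0.0153 CPM. Upstream units had the sharpest profile, with 0.107 CPM at 200 bases in TT-Seq against 0.0198 CPM in the Total RNA-Frag-Seq libraries. Internal units peaked at 0.0321 CPM and elsewhere units at 0.0569 CPM in TT-Seq, both at 200 bases.

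**Figure D5:**
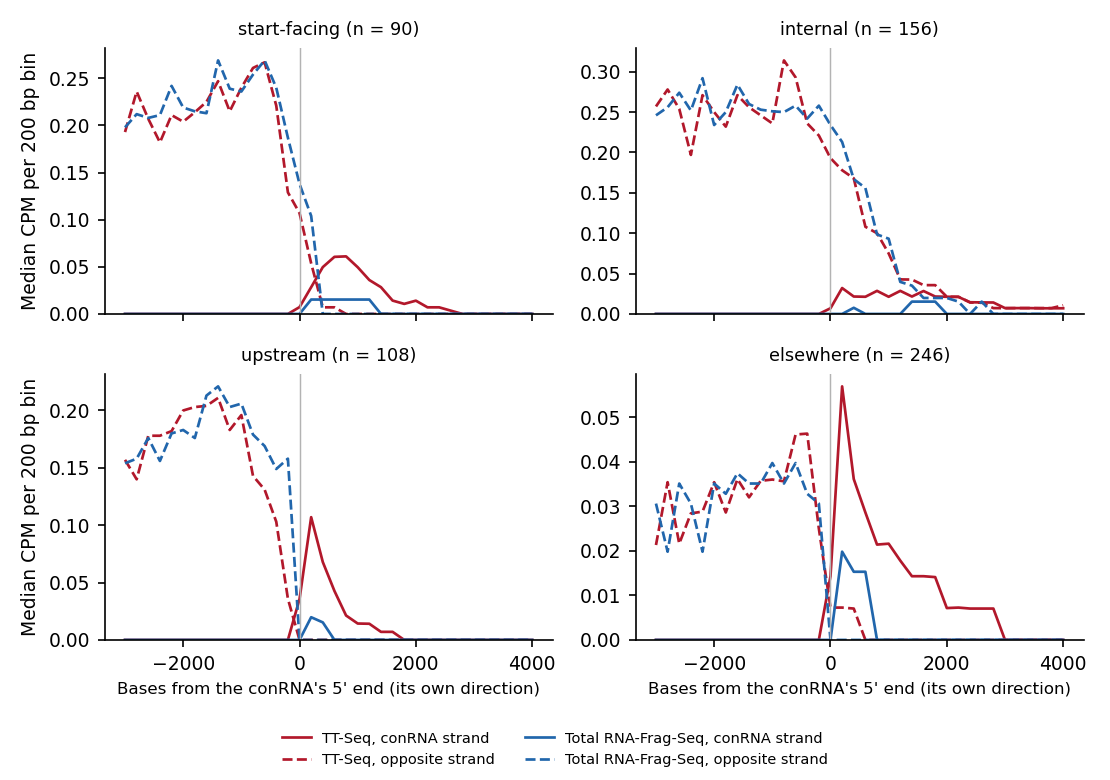
Median level (CPM per 200-bp bin) around the 5′ end of conRNAs (x axis, bases in the conRNA's own direction) on the conRNA strand (solid) and the opposite strand (dashed), in TT-Seq (red) and Total RNA-Frag-Seq (blue), by position class. TT-Seq signal of start-facing conRNAs is highest at 0.0611 CPM, past the mRNA start for most of these units, where the opposite strand has declined to near 0. The y axes differ between panels.

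RNA polymerase II was concentrated at the same ends, though ChIP has no strand and cannot separate the conRNA from the mRNA start beside it. In a 1-kb window at the 5′ end of start-facing conRNAs, N20 ChIP had medians of 6.98 and 7.5 CPM, against 0.317 and 0.428 CPM in a window 2 to 3 kb upstream. The window at the 5′ end was the highest of the 3 compared in 81 and 89 of 90 units. At upstream conRNAs the medians were 6.67 and 7.75 CPM and at internal ones 3.33 and 3.47 CPM. Units elsewhere had 2.14 and 2.4 CPM, against 0.317 and 0.428 CPM upstream, and 94 of these 246 units had the start of a unit of another class within 1 kb on the opposite strand. S2P ChIP had 2.23 and 4.09 CPM at start-facing and 1.36 and 1.97 CPM at elsewhere units. Nothing in the labels says whether the ChIP replicates came from separate cultures, so their spread may be technical.

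Some of the units outside GENCODE overlap a gene in RefSeq. Of 578 units looked up, 78 overlapped a RefSeq gene on the same strand, 69 of these a long non-coding RNA and 9 a coding gene. A RefSeq transcript started within 1 kb of 51 units and within 100 bases of 22. The 78 overlapping units had 53 higher and 3 lower in TT-Seq relative to Total RNA-Frag-Seq, at a median log2 fold change of 1.25, and the 500 others had 380 higher and 20 lower, with a median of 2.09. CCGGAAG stood in 41.2% of the 51 windows at these RefSeq starts and GGGCGG in 68.6%, against 21.2% and 73.1% of the windows of all named mRNA units and 14.2% and 58.5% of those of 15843 coding genes. These shares were not tested. The conRNA of ASPSCR1 started within 55 bases of LOC105371939, that of HS1BP3 within 27 bases of LOC105373466 and that of RTTN within 30 bases of LOC105372180.

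One unit held a microRNA. miR-4521 (chr17:8186948-8186969, plus strand, RefSeq) lies in a conRNA of 1166 bases that starts at chr17:8186870, and its mature sequence is shown with the seed, bases 2 to 8, in capitals.
hsa-miR-4521: gCUAAGGAaguccugugcucag
This unit had 5.96 and 6.78 CPM in TT-Seq, 4.2 and 5.07 CPM in 4sU-Seq, 2.17 and 2.42 CPM in the Total RNA-Frag-Seq libraries and 2.51 and 4.23 CPM in Total RNA-Seq. Both purified groups lay above Total RNA-Frag-Seq, with a log2 fold change of 1.48 (SE 0.19, edgeR adjusted p = 8.35e-07) in TT-Seq. The counts come from the whole unit and do not measure the mature microRNA.

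Genes listed for RNA decay, transcription termination, cell division and short-lived regulators were looked up among the faced genes. Each of these lists held 1 faced gene among its 10 to 20 mRNA units. Of all 7810 mRNA units, 244 faced a conRNA outside GENCODE, and whether any list exceeded this share was not tested. ZCCHC7, the RNA-binding subunit of the exosome's TRAMP adaptor, faced the start-facing conRNA whose promoter window is shown above as LOC105376034, at -72 bases relative to the RefSeq start of ZCCHC7. It had 1.83 and 2.1 CPM in TT-Seq, against 0.489 and 0.674 CPM in the Total RNA-Frag-Seq libraries (log2 fold change 1.78, SE 0.25, edgeR adjusted p = 2.42e-06). Its mRNA unit had 693 and 703 CPM in TT-Seq, against 1210 and 1300 CPM in the Total RNA-Frag-Seq libraries, so the partners moved in opposite directions. INTS3, a subunit of Integrator, which cleaves nascent RNA, faced one at -103 bases relative to its RefSeq start, with 0.407 and 0.45 CPM in TT-Seq, against 0.0306 and 0.119 CPM in the Total RNA-Frag-Seq libraries. SCAF8, which binds the C-terminal domain of polymerase II and restrains early polyadenylation, faced one with 1.19 and 1.34 CPM in TT-Seq, against 0.642 and 0.595 CPM in the Total RNA-Frag-Seq libraries. Both were called, with log2 fold changes of 2.58 and 1.02. TTK, the spindle checkpoint kinase MPS1, faced a start-facing conRNA with 1.76 and 1.67 CPM in TT-Seq, against 0.153 and 0.198 CPM in the Total RNA-Frag-Seq libraries (log2 fold change 3.29, SE 0.38, edgeR adjusted p = 1.56e-07). The conRNA of NR4A1, an immediate early nuclear receptor, had 0.145 and 0.225 CPM in TT-Seq, against 0.0306 and 0.0397 CPM in the Total RNA-Frag-Seq libraries (log2 fold change 2.33, edgeR adjusted p = 0.0159).

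Lists of genes were also counted over their own mRNA units in TT-Seq relative to Total RNA-Frag-Seq. Over all 7810 mRNA units 16.7% were higher and 62.8% lower. Exosome and adaptor genes had 6 of 20 units higher and 8 lower, cleavage and polyadenylation factors 6 of 19 higher and 11 lower, and Integrator subunits 4 of 10 higher and 5 lower. Mitosis genes had 6 of 20 higher and 13 lower, and short-lived regulators 3 of 16 higher and 5 lower. The ZNF genes, which code for zinc finger proteins, had 36 of 265 higher and 160 lower, shares of 13.6% and 60.4% near those of all mRNA units, and 4 of the 5 conRNAs that face them were higher and 0 lower. DNA replication genes (2 of 25 higher, 19 lower), erythroid regulators (1 of 8 higher, 5 lower) and ribosomal proteins (3 of 30 higher, 24 lower) faced no conRNA outside GENCODE. Only 244 of all 7810 mRNA units faced one, so its lack in lists this small cannot be read as a trait of these genes.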

How the data were processed

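Per the labels' protocols, K562 cells gave 8 RNA libraries (4 groups of 2) and 4 ChIP libraries. STAR 2.3.0, Bowtie2 2.1.0, SAMtools and hg38 (GRCh38) are named per the submitters' processing notes, without their roles. The authors deposited raw counts of fragments per 200-bp bin, stranded for RNA and unstranded for ChIP, and units segmented from the TT-Seq libraries. How multiply mapped reads were treated and how the deposited rates were estimated are not given in the sources used here. The deposited exon and intron counts were not used here, since no deposited table pairs their rows with units. No column was left without a sample (0 such columns).

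Counts were summed over each unit on its strand; a bin shared by several units of a strand counts in each. Units with at least 10 counts over the 8 libraries were tested with edgeR 4.0.16 in R 4.3.3 (robust quasi-likelihood fit of all 8 libraries, TMM scaling), with Benjamini-Hochberg adjustment over all units and a threshold of 0.05. CPM are counts per 1000000, of unit counts after TMM scaling for RNA and of binned counts for ChIP. The pair fit, also in edgeR, had a term for each library and a strand term for each group. With 2 against 2 libraries an exact two-sided permutation test cannot go below p = 0.333. Both fits were tested on simulated data.

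An mRNA unit took the symbol of a coding RefSeq gene that starts within 3 kb of it or has a Jaccard overlap of at least 0.5 (both where the tables give no strand), which named 228 of 246 pairs. Named conRNAs, called by the facing gene, were the 5 with the highest TT-Seq CPM; among called ones with a mean of at least 0.5 CPM and a symbol, up to 8 highest and 4 lowest log2 fold changes of TT-Seq over Total RNA-Frag-Seq and up to 3 each way elsewhere; the 5 highest ratios per kb; and up to 3 called ratio changes each way. Members facing listed genes, at a RefSeq start or holding a microRNA were also named. Members, lists and tests were chosen with earlier results of these data known, and the position classes after the coordinates were seen. The planned search of sequence around the units used RefSeq promoter windows instead, as no genome was used here. The alternatives were DESeq2 1.42.0, other scalings, filters, bins and pairings, a replicate block and fits without each library.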

Additional observations from a re-analysis of the deposited data

How the results depend on the processing

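The comparisons are numbered in the order of the text: TT-Seq over Total RNA-Frag-Seq, 4sU-Seq over Total RNA-Seq, TT-Seq over 4sU-Seq, and the fragmented over the intact total RNA. In the first, 13 conRNAs were lower without TMM scaling, and DESeq2's test called 341 higher and 20 lower. A stricter filter on counts left 483 conRNAs, of which 377 were higher. In the second, 17 were lower with DESeq2 size factors, 4 without TMM scaling and 14 with only the 4 libraries compared, and DESeq2's test called 201 higher. In the third, DESeq2's test called 18 higher and 20 lower. In the fourth, 30 were lower with DESeq2 size factors, 9 were higher and 33 lower without TMM scaling, and DESeq2's test called 9 higher. Without TMM scaling the median over all units was 0.62, 0.44, 0.12 and -0.17 in the 4 comparisons, and the conRNA median 2.34, 1.54, 0.29 and -0.39. Ratios to the opposite-strand counts of the conRNA's own span gave 6, 3 and 3 pairs lower in the first 3 comparisons, and 5 higher and 4 lower in the fourth. Pairs with at least 10 counts in every library were fewer, with 70, 63 and 33 of 75 higher in the first 3 comparisons. With the nearest mRNA unit in place of an overlapping one 599 pairs entered, with 519 higher and 13 lower, 409 and 11, 146 and 36, and 8 higher in the fourth. Against the opposite-strand counts of the conRNA's own span, the KCTD3 ratio changed by 0.00. The cause of the other moves was not tested.

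Leaving out each library in turn gave 355 to 446 higher and 20 to 27 lower conRNAs in the first comparison, 202 to 338 and 8 to 16 in the second (16 without the second Total RNA-Frag-Seq library), 22 to 77 and 22 to 43 in the third, and 7 to 17 and 11 to 18 in the fourth. Higher ratios numbered 203 to 227, 153 to 198, 28 to 59 and 0 to 3, and lower ones 2 to 3, 1 to 1, 4 to 15 and 3 to 9. Of the values of named conRNAs under other settings, 281 kept their direction and side of the threshold, 9 lost their call, 1 gained one, 1 (the KCTD3 ratio) no longer had its direction and 4, the shares of unit counts without the most abundant unit, moved; without 1 library 312 kept them, 14 lost and 2 gained a call. The median conRNA had 5 or 6 counts in a total RNA library, which limits the fold changes of single units.

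Same-numbered replicates deviated together weakly or not at all (correlations of -0.0148 to 0.167 over 14187 units). With 2 libraries a group this cannot settle whether the numbers pair the samples. With the replicate block 437 conRNAs were higher and 27 lower in the first comparison, 332 and 11 in the second, 67 and 42 in the third, and 16 and 15 in the fourth, and the ratio rose in 226, 190, 61 and 3 pairs.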
